A study of Rattus norvegicus with 12 samples.

Results

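The 6 genes described here encode sugar carriers of the kidney tubule, and they were chosen by name as rows of a table of 13151 genes, in which all 6 were present. They are Slc5a1 (the sodium-glucose cotransporter SGLT1), Slc5a2 (SGLT2), Slc5a10 (SGLT5), Slc2a1 (the facilitative carrier GLUT1), Slc2a2 (GLUT2) and Slc2a5 (GLUT5). RNA from the renal cortex of 12 rats aged 32 weeks was sequenced, 4 rats in each of 3 groups. Zucker lean (ZL) rats were the controls. Zucker fatty (ZF) rats, an obese strain with an inherited defect of leptin signalling, were untreated. The third group, ZF-SGLT2i, held Zucker fatty rats that ate canagliflozin, an inhibitor of SGLT2, in their food at 10 mg/kg/day; dosing began at an age of 24 weeks and lasted 8 weeks. All rats were male. The study calls the untreated obese rats nontreated, the name of an arm to which ZF rats were assigned at random beside the treated arm. Its methods describe ZL rats in a separate experiment with kidney biopsies and do not say whether the sequenced ones came from it, so in comparisons with ZL strain and experiment cannot be told apart.

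Glucose filtered at the glomerulus is taken up across the luminal membrane of the proximal tubule, mostly by SGLT2 in its early segments, called S1 and S2, while SGLT1 collects what is left in the late segment, S3. Sodium driven out of the cell by the sodium pump supplies the force for both, and glucose leaves across the basolateral membrane through GLUT2 in early and GLUT1 in later segments. SGLT5 and GLUT5 handle other sugars, mannose and fructose for the former and fructose for the latter, and canagliflozin blocks SGLT2 and, more weakly, SGLT1.

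Values are CPM (reads of a gene relative to all reads of a library) scaled between libraries by the trimmed mean of M values (TMM). Each rat had between 8824980 and 12210257 reads on genes, and the 6 genes had between 186 and 6081 reads in every rat. Levels were compared between groups by limma on log2(value + 1) over the 11633 genes that reached a value of 1 in 4 or more rats, all 6 among them, and a gene was called at a Benjamini-Hochberg adjusted p under 0.05. Levels of different genes were not ranked, because they were not set per transcript length. Nothing in the sources groups the rats of 1 group beyond their number, and p-values measure the spread between these rats.

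Before the results, the 12 libraries were compared through markers of the tubule segments. The S1 and S2 markers Slc34a1, Slc4a4, Slc6a19, Slc22a6, Slc22a8, Cubn, Lrp2 and Aqp1 were all present in every rat, as the label renal cortex implies, and of the 2 inner medulla markers Slc14a2 did not exceed 3.34 in any rat while Aqp4, a water channel, ran from 36.1 to 122. Slc14a2 was 0.286, 1.51, 0.906 and 3.34 in ZF-SGLT2i rats 2, 3, 4 and 6 and at most 0.715 in the other groups. Aqp4 was highest in ZF-SGLT2i rat 6 as well. It was called higher in ZF-SGLT2i than in ZL (0.76, adjusted p = 0.025, and 0.12 without ZL rats 1 and 4). Slc7a13, an amino acid transporter that marks S3, was 838, 139.9, 244 and 1896 in ZL rats 1 to 4. It was 148, 21.4, 36.0 and 6.12 in ZF rats 2, 3, 4 and 5. It was 14.1, 19.3, 22.3 and 14.4 in ZF-SGLT2i rats 2, 3, 4 and 6. ZL rats 1 and 4 therefore stood above the other 10 libraries in this marker, and ZF rat 2 stood above its group. The summed level of the 4 S3 markers (Slc7a13, Slc22a7, Slc3a1 and Agt), of which Slc3a1 had the most reads, was 3267, 1276, 1819 and 5732 in the ZL rats, 1243, 686, 1028 and 548 in the ZF rats and 678, 733, 746 and 549 in the ZF-SGLT2i rats. All 4 were called lower in ZF than in ZL and lower in ZF-SGLT2i than in ZL, where 10.6% and 15% of all genes tested were called lower. For ZF-SGLT2i versus ZF their adjusted p ran from 0.70 to 0.99. The defining marker Slc22a7 was near the floor, with 27, 1, 4 and 0 reads in ZF rats 2, 3, 4 and 5 and 3 in each ZF-SGLT2i rat. In whole cortex, fewer S3 cells and less RNA per S3 cell cannot be told apart. Each transporter result below is given with and without ZL rats 1 and 4 where leaving them out mattered, a choice made after seeing the data. Leaving them out leaves 2 ZL rats, so a call can be lost at an unchanged log2 fold change. For ZF-SGLT2i versus ZF the log2 fold changes stay the same. The adjusted p still moves, because the 3 groups share 1 estimate of the spread.

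**Figure D1:**
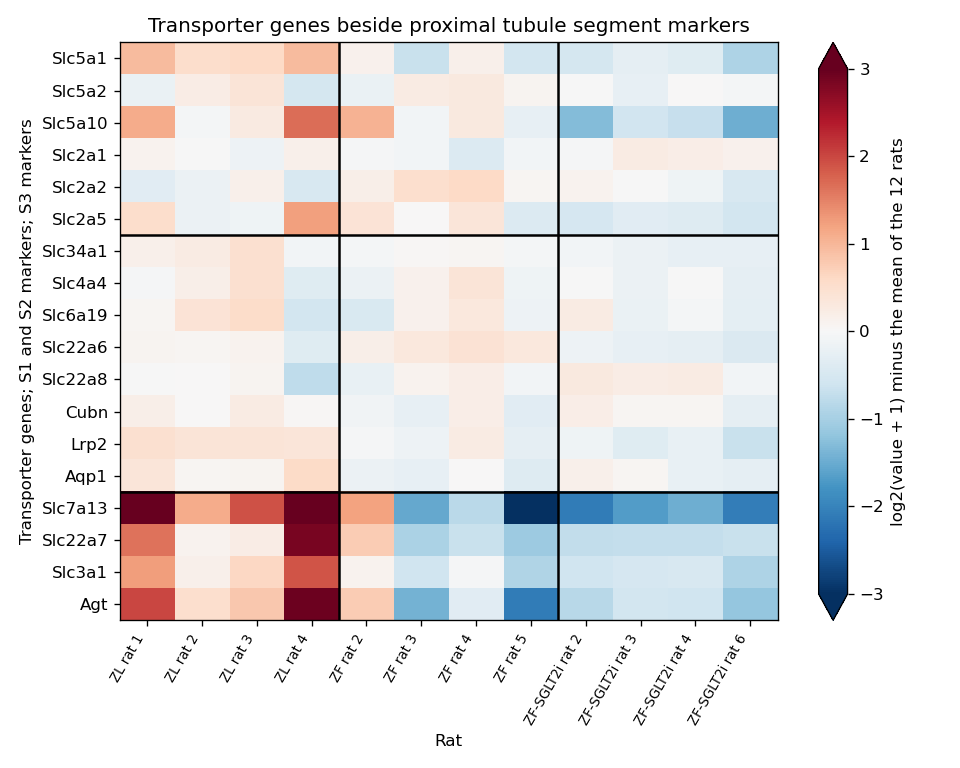
Heat map of log2(value + 1) minus the mean of the 12 rats for the 6 transporter genes (top), 8 S1 and S2 markers (middle) and 4 S3 markers (bottom), 1 column per rat with lines between groups; colours end at 3 and −3. The S3 markers are highest in ZL rats 1 and 4, where Slc5a10 and Slc2a5 are highest too and Slc5a2 is at its lowest in rat 4.

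The first bases upstream of 3 of the genes are shown, because Slc5a1 and Slc5a2 carry the same sugar and are set against each other below, and because Slc2a1 was the only one of the 6 with matches to the motifs given here. All 6 genes matched an entry in the RefSeq promoter table (GRCr8), whose windows run from 250 bases before to 50 after the start. The 250 bases before the start are chr14:81843085-81843334 on the minus strand for Slc5a1, chr1:192277371-192277620 on the plus strand for Slc5a2 and chr5:138002272-138002521 on the plus strand for Slc2a1, each printed 5′ to 3′ with GC boxes in capitals.
Slc5a1: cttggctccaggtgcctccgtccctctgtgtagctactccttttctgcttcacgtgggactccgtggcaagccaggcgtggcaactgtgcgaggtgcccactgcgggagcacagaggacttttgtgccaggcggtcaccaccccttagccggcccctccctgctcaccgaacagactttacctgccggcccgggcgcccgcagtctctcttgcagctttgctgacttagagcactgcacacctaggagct
Slc5a2: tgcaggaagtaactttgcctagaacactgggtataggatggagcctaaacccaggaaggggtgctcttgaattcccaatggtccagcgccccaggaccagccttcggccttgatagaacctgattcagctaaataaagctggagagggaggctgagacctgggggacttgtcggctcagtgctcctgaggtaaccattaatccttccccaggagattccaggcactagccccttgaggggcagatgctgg
Slc2a1: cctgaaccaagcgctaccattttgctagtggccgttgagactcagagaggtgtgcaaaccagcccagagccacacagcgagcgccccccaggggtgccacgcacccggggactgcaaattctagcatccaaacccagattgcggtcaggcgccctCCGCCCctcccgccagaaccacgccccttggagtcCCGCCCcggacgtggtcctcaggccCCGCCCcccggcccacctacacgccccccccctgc
On both strands of the whole windows, the GC box GGGCGG, bound by SP1-type factors, occurred in 33.1% of 33469 promoters and in 1 of the 6 genes, Slc2a1, 3 times. The TATA box TATAAA occurred in 14.2% of promoters and in Slc2a1 alone of the 6, 25 bases after its listed start. The motifs do not overlap each other in letters, and an exact match or its absence describes these letters in this window only.

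Slc5a1 was the transporter gene with the plainest difference. Its level was 79.3, 58.3, 61.5 and 78.8 in ZL rats 1 to 4. In the ZF rats it was 44.4, 25.1, 44.6 and 27.2, and in the ZF-SGLT2i rats 27.5, 33.1, 31.2 and 20.8. Every rat of the obese groups lay below every ZL rat, while ZF and ZF-SGLT2i overlapped. The group means were 69.5 ± 11.1 (SD, n = 4) for ZL, 35.3 ± 10.6 for ZF and 28.2 ± 5.41 for ZF-SGLT2i. The log2 fold change was −0.99 for ZF versus ZL (SE 0.19, limma adjusted p = 0.0043) and −1.28 for ZF-SGLT2i versus ZL (adjusted p = 0.00047). For ZF-SGLT2i versus ZF it was −0.29, with a 95% interval from −0.70 to 0.13 (adjusted p = 0.48). Without ZL rats 1 and 4 the log2 fold changes of Slc5a1 against ZL were −0.79 in ZF (adjusted p = 0.049) and −1.08 in ZF-SGLT2i (adjusted p = 0.0084). The S3 markers, which mark the segment where SGLT1 works, moved with it between both obese groups and ZL, and their part in the result was not tested.

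Slc5a2, the target of the drug, was not called in any comparison. Its level was 365, 496, 549.9 and 292 in the ZL rats, 370.2, 504, 519.7 and 446 in the ZF rats and 418, 359, 424 and 403 in the ZF-SGLT2i rats. The 3 groups overlapped, and the spread was widest in ZL, where rats 1 and 4 were the low ones. The log2 fold change was 0.14 for ZF versus ZL (95% interval −0.21 to 0.50, adjusted p = 0.60). It was −0.19 for ZF-SGLT2i versus ZF (−0.55 to 0.17, adjusted p = 0.62) and −0.05 for ZF-SGLT2i versus ZL (−0.40 to 0.31, adjusted p = 0.87). Without ZL rats 1 and 4 the first of these turned to −0.19 (adjusted p = 0.36) and the last was −0.38 (adjusted p = 0.054), and without ZF rat 2 as well the last passed the threshold at the same size (adjusted p = 0.018).

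Slc5a10 was lowest in the treated rats. Its level was 129, 56.6, 71.3 and 191 in the ZL rats. In the ZF rats it was 122, 55.3, 72.6 and 49.6, and in the ZF-SGLT2i rats 23.5, 39.5, 36.2 and 20.7. All 4 treated rats lay below all 8 others, whereas ZL and ZF overlapped, with ZL rats 1 and 4 and ZF rat 2 at the top. The means were 112 ± 61.2 (SD, n = 4) for ZL, 74.9 ± 32.8 for ZF and 30.0 ± 9.24 for ZF-SGLT2i. Slc5a10 fell between ZL and ZF-SGLT2i, by −1.75 in log2 fold change (SE 0.36; limma adjusted p = 0.0030). Against ZF the log2 fold change was −1.25 (SE 0.36), which missed the threshold after adjustment (adjusted p = 0.078, unadjusted p = 0.0036). For ZF versus ZL it was −0.50 (95% interval −1.27 to 0.27, adjusted p = 0.36). Without ZL rats 1 and 4, Slc5a10 kept a log2 fold change of −1.11 for ZF-SGLT2i versus ZL (adjusted p = 0.032). That for ZF versus ZL turned to 0.14 (adjusted p = 0.83). For ZF-SGLT2i versus ZF it stayed −1.25, because no ZL rat enters that difference. Its adjusted p became 0.017 through the spread that the 3 groups share. The S3 marker Slc7a13 overlapped for ZF-SGLT2i versus ZF, with a log2 fold change of −0.75 (adjusted p = 0.70), and its part in the result was not tested.

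**Figure D2:**
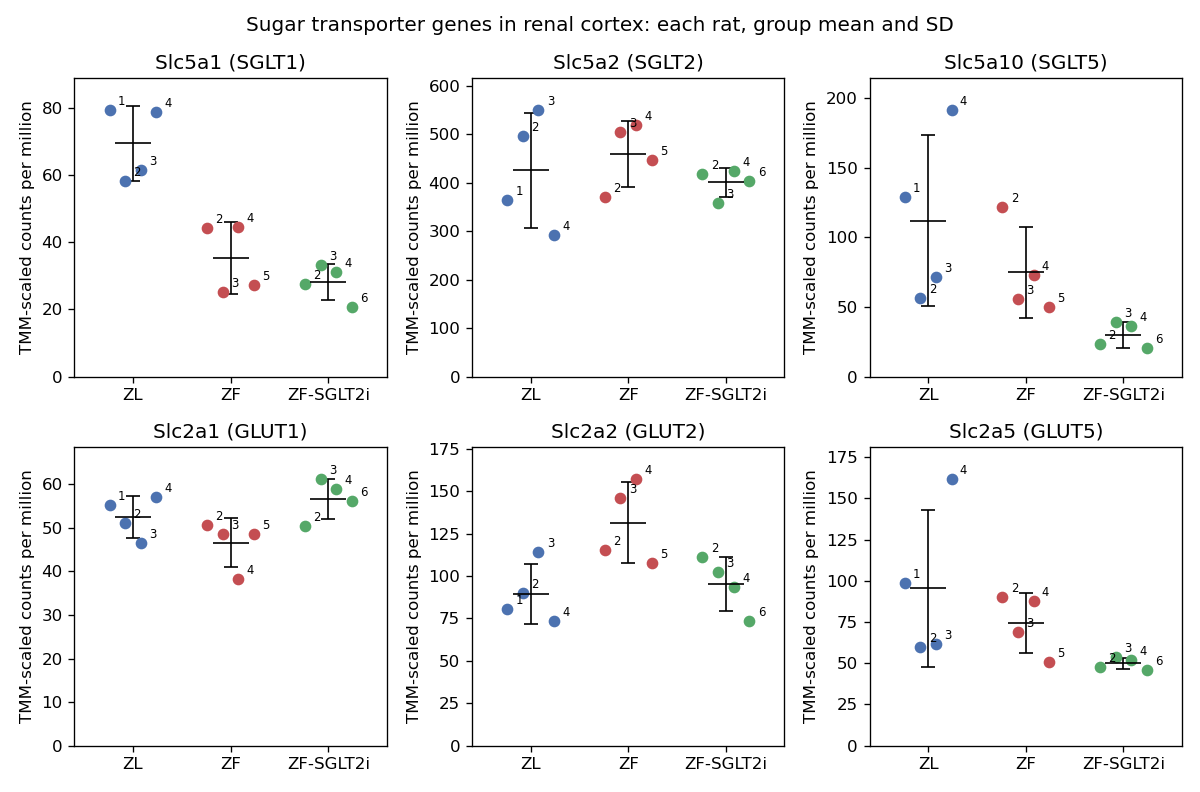
TMM-scaled CPM of the 6 transporter genes in ZL, ZF and ZF-SGLT2i rats; each point is 1 rat with its number, the bar is the group mean and the whisker 1 SD (n = 4). The obese groups lie below ZL in Slc5a1, and the treated rats lie below all others in Slc5a10.

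Slc2a2, the basolateral exit route of the early segments, rose in ZF. Its level was 80.8, 90.0, 114 and 73.2 in the ZL rats, 115, 146, 157 and 108 in the ZF rats and 111, 103, 93.8 and 73.6 in the ZF-SGLT2i rats. ZL rat 3 lay above ZF rat 5, so the groups touched, and the treated rats lay within the range of the ZL rats. The mean was 89.5 ± 17.7 (SD, n = 4) for ZL, 132 ± 23.8 for ZF and 95.3 ± 16.1 for ZF-SGLT2i. The log2 fold change was 0.55 for ZF versus ZL (SE 0.16, adjusted p = 0.026). It was −0.46 for ZF-SGLT2i versus ZF (adjusted p = 0.14, unadjusted p = 0.011) and 0.09 for ZF-SGLT2i versus ZL (95% interval −0.24 to 0.43, adjusted p = 0.69). The call for ZF versus ZL was lost without ZL rats 1 and 4 (0.36, adjusted p = 0.23), and also without ZL rat 1 (adjusted p = 0.072), ZL rat 4 (0.064), ZF rat 3 (0.077) or ZF rat 4 (0.058) alone.

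Slc2a1, the carrier of later segments and of many other cells, was not called in any comparison. Its level was 55.2, 51.2, 46.5 and 57.2 in the ZL rats, 50.7, 48.7, 38.3 and 48.6 in the ZF rats and 50.6, 61.2, 59.0 and 56.3 in the ZF-SGLT2i rats. The groups overlapped, and ZF rat 4 was the low value of the 12. The log2 fold change was −0.17 for ZF versus ZL (95% interval −0.38 to 0.03, adjusted p = 0.22) and 0.28 for ZF-SGLT2i versus ZF (0.08 to 0.49, adjusted p = 0.13). For ZF-SGLT2i versus ZL it was 0.11 (−0.09 to 0.31, adjusted p = 0.41). Without ZL rats 1 and 4 the log2 fold change of Slc2a1 against ZL was −0.07 in ZF (adjusted p = 0.74) and 0.21 in ZF-SGLT2i (adjusted p = 0.24).

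Slc2a5, the luminal fructose carrier, resembled Slc5a10 in its order. Its level was 98.7, 59.8, 61.9 and 162 in the ZL rats, 90.2, 68.8, 87.9 and 50.8 in the ZF rats and 47.6, 53.6, 52.0 and 46.0 in the ZF-SGLT2i rats. The treated rats lay below all ZL rats and overlapped only with ZF rat 5, and ZL rats 1 and 4 were again the highest. Slc2a5 fell between ZL and ZF-SGLT2i, by −0.81 in log2 fold change (SE 0.26; limma adjusted p = 0.034). It was −0.54 for ZF-SGLT2i versus ZF (95% interval −1.09 to 0.02, adjusted p = 0.31) and −0.27 for ZF versus ZL (−0.83 to 0.29, adjusted p = 0.51). Without ZL rats 1 and 4 the log2 fold change against ZL was −0.29 in ZF-SGLT2i (adjusted p = 0.31) and 0.25 in ZF (adjusted p = 0.41), so the call rested on them. Leaving out ZL rat 1, ZL rat 4 or any 1 treated rat also ended it, with adjusted p from 0.055 to 0.086, and the part of the S3 markers in it was not tested.

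Counted over the 6 genes, 2 were called for ZF versus ZL (Slc5a1 lower, Slc2a2 higher), where 18.8% of all genes tested were called (8.19% higher and 10.6% lower). For ZF-SGLT2i versus ZF 0 of the 6 were called by limma, by edgeR or by DESeq2, against a background of 3.15% (1.39% higher and 1.75% lower), and 3 (limma), 4 (edgeR) and 3 (DESeq2) had an unadjusted p under 0.05, as did 17.2%, 17.1% and 16.2% of all genes tested. For ZF-SGLT2i versus ZL 3 were called lower (Slc5a1, Slc5a10 and Slc2a5) and 0 higher, against a background of 27.4% (15% lower and 12.4% higher). The values did not overlap between the groups in 1 of the 6 for ZF and ZL, 1 for ZF-SGLT2i and ZF and 3 for ZF-SGLT2i and ZL, against 19%, 11.2% and 28% of all genes tested. The median log2 fold change of the 6 was −0.22, −0.37 and −0.43 in the 3 comparisons, which share rats, while that of all genes tested was −0.01, 0.01 and 0.00. With ZL rats 1 and 4 left out, the first median turned to 0.03, with 3 of the 6 genes below 0, and the last was −0.33.

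**Figure D3:**
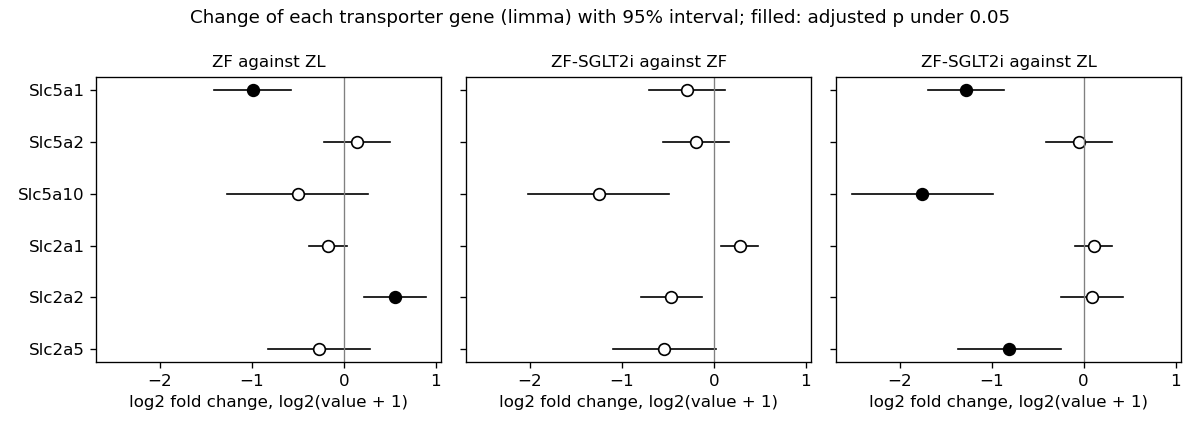
Log2 fold change on the log2(value + 1) scale of the 6 transporter genes from limma in the 3 comparisons; the line is the 95% interval, and a filled point has an adjusted p under 0.05. Slc5a1 is filled in both comparisons with ZL, and no point is filled for ZF-SGLT2i versus ZF.

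A ratio of 2 genes within a rat does not depend on the size of its library, and is given as a description. The value of Slc5a1 relative to Slc5a2 was 0.179 ± 0.078 (SD, n = 4) for ZL, 0.079 ± 0.031 for ZF and 0.071 ± 0.017 for ZF-SGLT2i. It ran from 0.112 to 0.270 for ZL, from 0.050 to 0.120 for ZF and from 0.052 to 0.092 for ZF-SGLT2i, so that ZL and ZF touched and ZL and ZF-SGLT2i did not. ZL rats 2 and 3 alone had a mean of 0.115 for this ratio, within the range of the ZF rats. That range reached 0.120 through ZF rat 2, the ZF rat highest in Slc7a13. ZF rats 3, 4 and 5 were at 0.050, 0.086 and 0.061, below ZL rats 2 (0.118) and 3 (0.112). The value of Slc2a1 relative to Slc2a2 was 0.611 ± 0.160 for ZL, 0.367 ± 0.098 for ZF and 0.611 ± 0.127 for ZF-SGLT2i, with ranges that ran from 0.408 to 0.781, from 0.244 to 0.452 and from 0.455 to 0.765. The treated rats lay above all ZF rats in this ratio, by a small margin. Its mean in ZL rats 2 and 3 alone was 0.489.

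**Figure D4:**
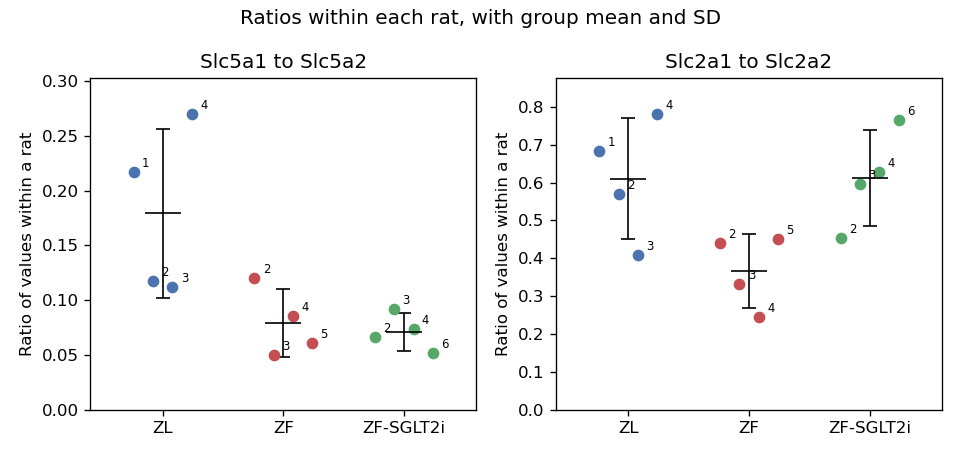
Ratio of the values of Slc5a1 and Slc5a2 (left) and of Slc2a1 and Slc2a2 (right) within each rat of the 3 groups; points are rats with their numbers, the bar is the mean and the whisker 1 SD (n = 4). Slc5a1 relative to Slc5a2 is highest in ZL rats 1 and 4, and Slc2a1 relative to Slc2a2 is lowest in ZF.

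Across the 12 rats some of the 6 genes varied together and some ran against each other. These relations are described by Pearson's r of log2(value + 1), with no test, since the points share groups and library scaling. Slc5a10 and Slc2a5 had an r of 0.93, and 0.89 once each group was centred on its mean. The r was 0.90 over the 10 rats left when the 2 farthest from the median in Slc5a10 were left out. Slc5a1 and Slc5a10 had an r of 0.83 (0.81 centred, 0.69 over 10 rats), and Slc5a2 and Slc2a2, both of the early segments, 0.65 (0.67 centred, 0.55 over 10 rats). Within groups Slc5a2 ran against Slc5a10, with a centred r of −0.81, and of −0.74 over the 10 rats left without ZL rats 3 and 4, the farthest in Slc5a2. Without centring, the r of this pair was −0.34 over the 12 rats and −0.08 over the 10. Slc2a1 ran against Slc2a2 (r = −0.76, −0.67 centred, −0.77 over 10 rats) and against Slc5a2 (r = −0.70, −0.70 centred, −0.71 over 10 rats). With Slc5a1, Slc5a10 and Slc2a5 the r of Slc2a1 was −0.05, −0.12 and −0.08, and with groups centred 0.02, 0.49 and 0.30. The S3 marker Slc7a13 had a centred r of 0.92 with Slc5a10, 0.91 with Slc2a5, 0.73 with Slc5a1 and −0.73 with Slc5a2. Without centring, these were 0.84, 0.83, 0.93 and −0.40 over the 12 rats. Over the 10 rats left without the farthest in each transporter they were 0.77, 0.55, 0.88 and −0.26.

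The genes most like each transporter over the 12 rats were sought among tested genes with a mean value of at least 10. For Slc5a1 they were Amacr (r = 0.98), an enzyme of branched fatty acid breakdown, Tuba4a (0.97), a tubulin, and Plau (0.97), the urokinase plasminogen activator. For Slc5a2 they were Slc7a7 (0.91), a basolateral amino acid carrier, Slc34a3 (0.91), a luminal phosphate carrier, and Abcc4 (0.89), an efflux pump. For Slc5a10 they were Limch1 (0.95), Umod (0.95), which encodes uromodulin of the thick ascending limb, and Tkfc (0.95), an enzyme of fructose breakdown. With groups centred, Slc34a3 kept an r of 0.98 with Slc5a2 and Umod one of 0.98 with Slc5a10. For Slc2a5 they were Agmat (0.96), Serping1 (0.96) and Ptprn (0.96), for Slc2a2 Pla2g7 (0.90), Erap1 (0.89) and Tbl1xr1 (0.89), and for Slc2a1 Tsc22d4 (0.88), Pold2 (0.88) and Zmiz1 (0.87).

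Umod is made in another segment than the proximal tubule, and it moved with Slc5a10. It was 3014, 2190.3, 2333 and 3985 in the ZL rats, 4034, 2559, 2850.4 and 2418 in the ZF rats and 1641, 2072, 2007 and 1704 in the ZF-SGLT2i rats. As in Slc5a10, ZL rats 1 and 4 and ZF rat 2 were the 3 highest and the treated rats the 4 lowest. Its log2 fold change was −0.60 for ZF-SGLT2i versus ZL (adjusted p = 0.035, with 0.33 without ZL rats 1 and 4 and 0.34 under quantile normalization). For ZF-SGLT2i versus ZF it was −0.65 (adjusted p = 0.092). Without ZL rats 1 and 4 this stayed −0.65, with an adjusted p of 0.030. The part of Umod in the results of Slc5a10 was not tested.

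Among the other members of the SLC5 family, 6 were in the table and tested, and 4 of these fell in ZF and in ZF-SGLT2i relative to ZL, where 10.6% and 15% of all genes tested were called lower, while for ZF-SGLT2i versus ZF the adjusted p of the 6 ran from 0.47 to 0.98. These were Slc5a3, a sodium-coupled inositol carrier, Slc5a6, the multivitamin carrier, Slc5a9 (SGLT4), a mannose and fructose carrier, and Slc5a11 (SGLT6), another inositol carrier. Slc5a9 was 44.8, 33.4, 41.2 and 53.2 in the ZL rats, 27.0, 29.9, 29.0 and 26.3 in the ZF rats and 28.1, 26.8, 28.4 and 21.4 in the ZF-SGLT2i rats, so that all obese rats lay below all ZL rats. Its log2 fold change was −0.59 in ZF (adjusted p = 0.0061; 0.062 without ZL rats 1 and 4) and −0.69 in ZF-SGLT2i (adjusted p = 0.0013). That of Slc5a3 was −0.41 (adjusted p = 0.027) and −0.53 (adjusted p = 0.0046), that of Slc5a6 −0.28 (0.015) and −0.32 (0.0043), and that of Slc5a11 −0.33 (0.048) and −0.41 (0.014). The call of Slc5a11 in ZF was lost in 20 of 23 alternatives, among them edgeR (adjusted p = 0.061) and DESeq2 (adjusted p = 0.053). Slc5a8 and Slc5a12, the lactate carriers of the luminal membrane, were not called in any comparison with all rats. When ZL rats 1 and 4 were left out, 1 of the 6 was called lower in ZF, Slc5a12 (−0.60, adjusted p = 0.039), while Slc5a3, Slc5a6, Slc5a9 and Slc5a11 had adjusted p of 0.059, 0.15, 0.062 and 0.088. In ZF-SGLT2i relative to ZL the same fit called 4 lower, Slc5a3, Slc5a9, Slc5a11 and Slc5a12. That fit called 4.47% of all genes tested lower for ZF versus ZL and 8.45% for ZF-SGLT2i versus ZL. Without ZF rat 2 as well, Slc5a3 (−0.47, adjusted p = 0.041) and not Slc5a12 was called lower in ZF, and the same 4 in ZF-SGLT2i. This second fit called 340 and 996 of the 11633 genes lower in these comparisons.

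Of the other SLC2 carriers, 8 were in the table and 7 were tested. With all rats 1 was called, higher for ZF-SGLT2i versus ZL, where 12.4% of all genes tested were called higher. Slc2a6 was 2.10 ± 0.572 (SD, n = 4) for ZL and 3.31 ± 0.396 for ZF-SGLT2i, and its log2 fold change was 0.49 (adjusted p = 0.026; 0.19 without ZL rats 1 and 4). Slc2a4, the insulin-responsive GLUT4, was 5.78 ± 1.76 in ZL and 3.25 ± 1.15 in ZF (log2 fold change −0.67, adjusted p = 0.058). Slc2a9, which carries urate, and Slc2a12 and Slc2a13 were not called in any comparison with all rats, and Slc2a10 was in the table but did not pass the filter. With ZL rats 1 and 4 left out, Slc2a13 was called higher than in ZL in ZF (0.47, adjusted p = 0.027) and in ZF-SGLT2i (0.42, adjusted p = 0.027). That fit called 528 and 795 of the 11633 genes higher in these comparisons. Without ZF rat 2 as well, Slc2a13 was called in ZF-SGLT2i but no longer in ZF.

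The partners and regulators of the sodium-glucose carriers are given by 7 tested genes. Pdzk1ip1, which encodes MAP17, an accessory protein of SGLT2, was 225, 209, 217 and 232 in the ZL rats, 152, 162, 197 and 146 in the ZF rats and 172, 129, 138 and 120.2 in the ZF-SGLT2i rats. All obese rats lay below all ZL rats, although Slc5a2 itself overlapped. The log2 fold change of Pdzk1ip1 was −0.43 in ZF (adjusted p = 0.014; 0.098 without ZL rats 1 and 4) and −0.67 in ZF-SGLT2i (adjusted p = 0.00066). Pdzk1, the luminal scaffold that binds MAP17, fell by 0.41 in ZF (adjusted p = 0.012) and by 0.55 in ZF-SGLT2i (adjusted p = 0.0012) on the log2 scale. Under quantile normalization the change of Pdzk1 was −0.21 in ZF (adjusted p = 0.085) and −0.33 in ZF-SGLT2i (adjusted p = 0.0081). That of Hnf4a in ZF-SGLT2i, below, was −0.02 (adjusted p = 0.86). Hnf4a, a transcription factor of the proximal tubule (−0.25, adjusted p = 0.021; 0.14 without ZL rats 1 and 4), and the sodium-proton exchanger gene Slc9a3 (−0.35, adjusted p = 0.010) fell in ZF-SGLT2i against ZL. Txnip, whose product restrains glucose uptake, was 608, 805, 489 and 381 in the ZL rats, 619.5, 715, 713 and 834 in the ZF rats and 991, 985, 1050.2 and 1105 in the ZF-SGLT2i rats. The treated rats lay above all others, with a log2 fold change of 0.91 against ZL (adjusted p = 0.0019) and 0.53 against ZF (adjusted p = 0.12). For ZF-SGLT2i versus ZF the adjusted p of the 7 genes ran from 0.12 to 0.59, and Sgk1 and Mlxipl were not called in any comparison with all rats. With ZL rats 1 and 4 left out, Pdzk1 kept its call in ZF (adjusted p = 0.043, and 0.092 without ZF rat 2 as well). Pdzk1ip1, Pdzk1, Slc9a3 and Txnip kept theirs in ZF-SGLT2i against ZL, and Sgk1 was called lower than in ZL in both obese groups. Txnip passed against ZF at an unchanged log2 fold change (adjusted p = 0.044), but no longer without ZF rat 2 as well.

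The sodium pump, which sets the gradient for SGLT1 and SGLT2, is given by 2 tested genes. Its beta subunit Atp1b1 was not called in any comparison, and its regulator Fxyd2 fell in ZF (−0.45, adjusted p = 0.0035) and in ZF-SGLT2i (−0.35, adjusted p = 0.0077; 0.079 without ZL rats 1 and 4) against ZL.

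**Figure D5:**
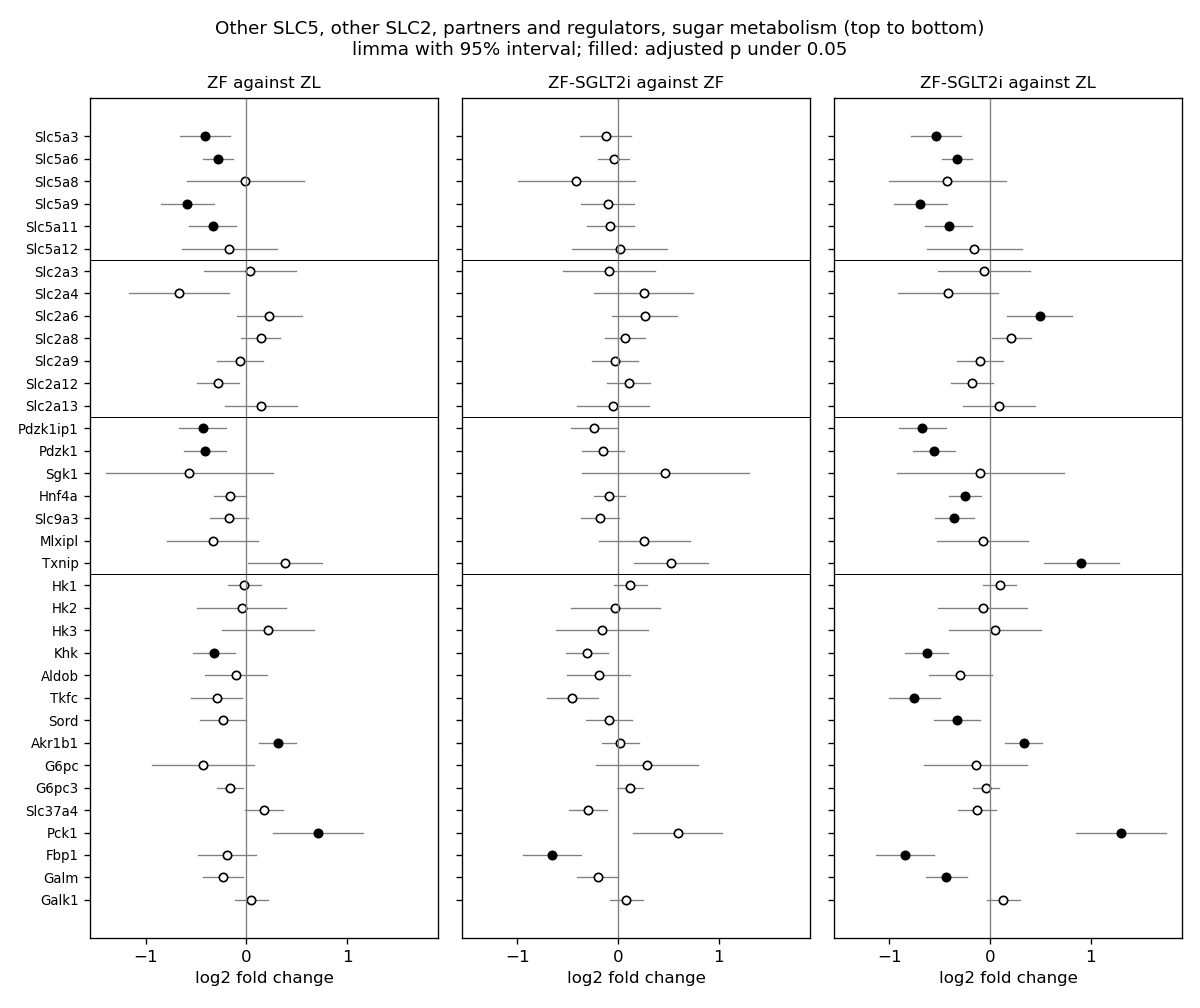
Log2 fold change on the log2(value + 1) scale from limma, with 95% interval, of the tested genes of the other SLC5 family, other SLC2 family, partners and regulators, and sugar metabolism lists, from top to bottom in each of the 3 comparisons; filled points have an adjusted p under 0.05. Slc5a3, Slc5a6, Slc5a9 and Slc5a11 are filled and below 0 against ZL in both obese groups, and Fbp1 is the single filled point for ZF-SGLT2i versus ZF.

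Among 15 tested genes of sugar metabolism, 3 were called for ZF versus ZL, 1 for ZF-SGLT2i versus ZF and 7 for ZF-SGLT2i versus ZL, where 18.8%, 3.15% and 27.4% of all genes tested were called. Khk, the ketohexokinase that starts fructose breakdown, was 290.0 ± 51.6 (SD, n = 4) for ZL, 229.6 ± 15.9 for ZF and 185 ± 4.85 for ZF-SGLT2i. It fell in ZF (−0.32, adjusted p = 0.035; 0.26 without ZL rats 1 and 4, 0.14 under quantile normalization) and in ZF-SGLT2i against ZL (−0.63, adjusted p = 0.00056), and was −0.31 for ZF-SGLT2i versus ZF (adjusted p = 0.11). Tkfc (−0.75, adjusted p = 0.00058), Sord, the sorbitol dehydrogenase (−0.33, adjusted p = 0.034; 0.45 under quantile normalization), and Galm, an aldose mutarotase (−0.43, adjusted p = 0.0044), fell between ZL and ZF-SGLT2i. Of the gluconeogenic genes, Pck1 rose and Fbp1 fell. Pck1 was 1756, 2043, 1789 and 972 in the ZL rats, 2169, 2327, 2883 and 3107 in the ZF rats and 3249.9, 4712, 4017 and 3774 in the ZF-SGLT2i rats, rising in ZF (0.71, adjusted p = 0.029; 0.15 without ZL rats 1 and 4) and in ZF-SGLT2i (adjusted p = 0.00063) against ZL. Fbp1 was 639.6 ± 50.3 for ZL, 570.2 ± 132 for ZF and 358 ± 47.6 for ZF-SGLT2i, and fell under treatment against ZF (−0.65, adjusted p = 0.019) and against ZL (−0.84, adjusted p = 0.00065). Akr1b1, the aldose reductase that makes sorbitol, rose in ZF (0.31, adjusted p = 0.022) and in ZF-SGLT2i (0.34, adjusted p = 0.011) against ZL. The fit without ZL rats 1 and 4 changed these counts: the genes called for ZF versus ZL came down to G6pc, the glucose-6-phosphatase, which was lower in ZF, and those for ZF-SGLT2i versus ZF were Khk, Tkfc and Fbp1 (lower) and Pck1 (higher). In this fit all 7 genes called for ZF-SGLT2i versus ZL kept their calls, and G6pc joined them as lower. Its log2 fold changes for ZF-SGLT2i versus ZF are those of the fit with all rats, and only the estimate of the spread differs. Of the 11633 genes tested, the fit without ZL rats 1 and 4 called 1048, 506 and 1778 in the 3 comparisons. Without ZF rat 2 as well, Pck1 was not called for ZF-SGLT2i versus ZF, and Slc37a4 of the same list was called lower.

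Markers of other cell types moved between the same groups, and their part in the transporter results was not tested. Of the 8 S1 and S2 markers, which share their segments with Slc5a2 and Slc2a2, Slc22a6 rose (0.33, adjusted p = 0.040) and Aqp1 fell (−0.47, adjusted p = 0.027) in ZF against ZL. Both calls were lost without ZL rats 1 and 4 (adjusted p of 0.17 and 0.25). Slc22a6 fell again for ZF-SGLT2i versus ZF (−0.59, adjusted p = 0.0084), and Slc34a1 (−0.39, adjusted p = 0.030) and Lrp2 (−0.75, adjusted p = 0.0057) fell between ZL and ZF-SGLT2i. The call of Slc34a1 was lost in 10 of 23 alternatives, among them quantile normalization (−0.18, adjusted p = 0.31). Their summed level, in which Lrp2 had the most reads, was 21286 ± 1290 (SD, n = 4) for ZL, 17272 ± 2026 for ZF and 15316 ± 1731 for ZF-SGLT2i. Of 4 podocyte markers, Nphs1, Podxl and Synpo were higher than in ZL in both obese groups. Of 5 collecting duct markers, Scnn1g was higher than in ZL in both (in ZF adjusted p = 0.0065; 0.059 without ZL rats 1 and 4), and Aqp2 and Aqp3 were called higher than in ZL in ZF-SGLT2i. Aqp2 was also higher in ZF-SGLT2i than in ZF (0.62, adjusted p = 0.0495), a call lost in 16 of 23 alternatives, among them edgeR (adjusted p = 0.059) and quantile normalization (adjusted p = 0.072). Of 4 thick limb and distal tubule markers Slc12a3, a sodium-chloride carrier, was higher in ZF-SGLT2i than in ZL (0.79, adjusted p = 0.0037) while Umod was lower.

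Of 5 fibroblast and smooth muscle markers, Pdgfrb, a growth factor receptor, was higher in ZF than in ZL (0.67, adjusted p = 0.0022). It fell again for ZF-SGLT2i versus ZF (−0.50, adjusted p = 0.031), a call lost in 7 of 23 alternatives, among them without ZF rat 2 (adjusted p = 0.098). The collagen gene Col1a1 was higher in ZF than in ZL (0.61, adjusted p = 0.044). Without ZL rats 1 and 4 its log2 fold change was 0.78 (adjusted p = 0.058). Col3a1 was lower in ZF-SGLT2i than in ZF (−1.03, adjusted p = 0.0055) and than in ZL (−0.52, adjusted p = 0.038, and 0.21 without ZL rats 1 and 4). Of 5 endothelial markers Tie1 alone was called, higher in ZF than in ZL (0.31, adjusted p = 0.020; 0.087 without ZL rats 1 and 4), and the adjusted p of the tested macrophage, lymphocyte, red cell and adipocyte markers ran from 0.058 to 0.97. Havcr1, a marker of injured tubule, was 1.70, 1.56, 1.70 and 1.88 in the ZL rats, 52.3, 14.6, 32.1 and 7.32 in the ZF rats and 21.9, 16.7, 13.4 and 2.34 in the ZF-SGLT2i rats, and all obese rats lay above all ZL rats. Of the other 3 injury markers tested, Spp1 was called higher than in ZL in both obese groups and Lcn2 in ZF, and none of these 3 calls held without ZL rats 1 and 4. Vcam1 fell for ZF-SGLT2i versus ZF (−0.67, adjusted p = 0.039), where all 4 injury markers had log2 fold changes below 0. That call was lost in 8 of 23 alternatives, among them without ZF rat 4 (adjusted p = 0.12). Vcam1 was also lower in the treated rats than in ZL (−0.50, adjusted p = 0.034; 0.22 without ZL rats 1 and 4). Havcr1 kept its call in ZF without ZL rats 1 and 4 (3.06, adjusted p = 0.024) but not in ZF-SGLT2i (adjusted p = 0.064), while of the podocyte markers Podxl alone was called, in ZF-SGLT2i. In that fit the adjusted p of the 4 S3 markers ran from 0.059 to 0.34 in ZF against ZL, and Slc7a13 and Slc3a1 kept their calls in ZF-SGLT2i. With ZF rat 2 left out as well, all 4 S3 markers were called lower than in ZL in both obese groups. That fit called 340 (ZF) and 996 (ZF-SGLT2i) of the 11633 genes tested lower than in ZL.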

How the data were processed

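RNA from renal cortex was depleted of ribosomal RNA, made into directional libraries and read as paired ends. The submitters' processing notes name Trimmomatic 0.38, Bowtie2, RSEM 1.3.0, edgeR and the genome build rn6. The authors deposited 1 table of 13151 genes whose values are a normalised signal, CPM scaled by TMM factors. Dividing each rat's values by its smallest value above 0 gave whole numbers for 100% of values (within 0.001), so reads were recovered, between 8824980 and 12210257 per rat. Whether they had been counted or were rounded RSEM estimates is not given in the sources used here. Ribosomal genes held from 7.25% to 12.0% of reads in ZL, from 8.82% to 12.0% in ZF and from 11.5% to 15.2% in ZF-SGLT2i.

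Groups came from the labels. limma 3.58.1 (R 4.3.3) was fitted to log2(value + 1) of all 12 rats in 3 groups with a mean-variance trend, over 11633 genes that reached a value of 1 in 4 or more rats (1518 did not), with two-sided tests and Benjamini-Hochberg adjustment over all of them. Fold changes on this scale understate those of low genes. edgeR 4.0.16 and DESeq2 1.42.0 on the recovered reads, other pseudocounts, filters and scalings, a replicate block and each rat left out were alternatives. The fits were tested on simulated data. No pair of libraries of the same group agreed within sampling noise, and pairs between groups were not compared in this way. The 6 genes and the lists were chosen with earlier results of these data known. From each list, genes called in a comparison and defining markers are named. GC and TATA boxes were searched for after an earlier motif search, which, like some genes of the lists, is not reported here; counts over lists are of the genes reported. A planned comparison of levels per transcript length was not made, because lengths were not used here. Of the listed genes, Slc5a4, Slc5a4a, Slc5a4b, Slc5a5, Slc5a7, Slc2a7, Rsc1a1, Mlxip, Pvalb, Ahsp, Krt20 and Lep were not matched in the table and not analysed here. The listed symbol G6pc1 was not matched either, while G6pc was.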

Additional observations from a re-analysis of the deposited data

Results flagged for a closer look

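Among 282 groups of 4 rats (94 genes in 3 groups), 16 held a rat whose gap to its nearest neighbour exceeded Dixon's 95% critical share of the range, where 14.1 are expected by chance. Among the transporter genes, this was Slc2a1 in ZF rat 4, at 38.3 beside 48.6 to 50.7 in the other ZF rats. In the rest of the family it was Slc2a8 in ZF rat 3 (24.6 beside 20.9 to 21.4).

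Among genes of sugar metabolism, Hk3 was high in ZF rat 3 (4.31), Sord low in ZL rat 4 (499) and Fbp1 high in ZF rat 4 (768). ZL rat 4, one of the rats highest in S3 markers, was also low in the S1 and S2 markers Slc22a6 (525) and Slc22a8 (484), and ZF rat 2 was high in the S3 marker Slc22a7 (2.59).

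The podocyte markers Nphs1 (173.5) and Synpo (157) and the injury marker Spp1 (178) were high in ZL rat 2, although Spp1 spanned only 166 to 167 in the other ZL rats. Nphs1 (172.8) and Podxl (881) were low in ZF-SGLT2i rat 2. Ptprc (15.9) and Col1a1 (54.3) were low in ZL rat 3, and Plin1, an adipocyte marker, was 0.446 in ZF-SGLT2i rat 6 beside 0.0952 to 0.101.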

How the results depend on the processing

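The calls of Slc5a1 against ZL kept their direction and their side of the threshold in all 23 alternatives for each of the 2 obese groups. Over the 6 genes and 3 comparisons, 414 alternative fits gave 379 results with the same direction and side, 17 that lost a call, 5 that gained one and 13 that changed sign, all 13 of them in values that were not called. For the 69 calls of other listed genes, 1583 fits kept 1311, lost 272 and reversed 0. Of these 69 calls, 38 were lost with the replicate block, 36 without ZL rats 1 and 4, 34 without ZF rat 2 as well, 11 under quantile normalization (for ZF versus ZL Slc5a11, Pdzk1, Khk and Aqp1, for ZF-SGLT2i versus ZF Aqp2, and for ZF-SGLT2i versus ZL Slc2a6, Hnf4a, Sord, Slc34a1, Umod and Col3a1), and 2 each by edgeR and by DESeq2.

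The count of genes called for ZF versus ZL (2185) was 807 with the replicate block, 1048 without ZL rats 1 and 4, 642 without ZF rat 2 as well, and 1389 to 2453 with single rats left out. Quantile normalization gave 1103 higher and 942 lower, beside 953 and 1232. For ZF-SGLT2i versus ZF (366) it was 223 with the replicate block, 641 with DESeq2 and 176 to 570 with single rats left out. For ZF-SGLT2i versus ZL (3184) it was 1502 with the replicate block, 1778 without ZL rats 1 and 4 and 1785 without ZF rat 2 as well. Quantile normalization gave 1608 higher and 1467 lower in that comparison, beside 1441 and 1743.

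Rat numbers did not pair the rats (same-number correlations of deviations from −0.38 to 0.25, others from −0.40 to 0.46). Numbers 1, 5 and 6 each belong to a single rat, so the block takes ZL rat 1, ZF rat 5 and ZF-SGLT2i rat 6 out of the comparisons. Calls lost with the block therefore come with fewer rats. With the number as a replicate block, Slc2a2 for ZF versus ZL (0.60, adjusted p = 0.055), Slc5a10 (−1.48, 0.051) and Slc2a5 (−0.71, 0.12) for ZF-SGLT2i versus ZL lost their calls.

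Without ZL rats 1 and 4, and then without ZF rat 2 as well (both chosen after seeing the data), the log2 fold changes for ZF versus ZL were −0.19 and −0.095 for Slc5a2, 0.14 and −0.12 for Slc5a10, 0.36 and 0.41 for Slc2a2 (call lost), and 0.25 and 0.15 for Slc2a5. For ZF-SGLT2i versus ZF, Slc5a10 was −1.25 and −0.99, called in both, and −1.25 and called with only the 2 groups fitted. For ZF-SGLT2i versus ZL, Slc5a2 was −0.38 in both and called in the second, Slc2a2 −0.10 in both, and Slc2a5 −0.29 in both (call lost). Quantile normalization turned Slc5a2 to 0.088 for ZF-SGLT2i versus ZL.

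With single rats left out, Slc5a2 ranged from −0.023 to 0.28 for ZF versus ZL and from −0.21 to 0.092 for ZF-SGLT2i versus ZL. Slc2a2 ranged from 0.46 to 0.67 and Slc2a5 from −0.45 to 0.021 for ZF versus ZL. Slc5a10 ranged from −1.42 to −0.99 for ZF-SGLT2i versus ZF and from −0.77 to −0.19 for ZF versus ZL. For ZF-SGLT2i versus ZL, Slc2a5 ranged from −0.99 to −0.52, Slc2a1 from 0.054 to 0.16 and Slc2a2 from 0.0042 to 0.215. The range of Slc2a1 for ZF versus ZL was −0.23 to −0.084. For ZF-SGLT2i versus ZF, Slc5a1 ranged from −0.43 to −0.16 and Slc5a2 from −0.29 to −0.13. The causes were not tested. Each of the 6 genes had at least 186 recovered reads in every rat.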
